A study of Mus musculus with 8 samples.

Results

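IgG3-switched germinal-centre B cells were taken as the barcodes with exactly 1 assembled heavy chain and exactly 1 assembled light chain whose heavy chain carried the constant gene IGHG3. There were 375 of them among 40603 paired cells, 103 in DTX1_KO libraries and 272 in WT libraries. They are set here against the 1778 IgG1 cells and the 37489 IgM cells of the same libraries. IGHG3 is itself the marker of the class, and receptor tables hold no other transcripts, so the germinal-centre identity of the cells rests on the isolation alone.

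IgG3 is one of the antibody classes that a mouse B cell can switch to, replacing the IgM constant region while keeping the same rearranged variable region. In mice it is known for responses to polysaccharides and other antigens that need little T-cell help, for fixing complement and for a tendency of IgG3 molecules to associate with each other on repetitive surfaces. The Ighg3 constant gene is the first of the gamma genes downstream of Ighm and Ighd, and cells that switched to it can still switch further to Ighg1, Ighg2b or Ighg2c.

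The series asked how Deltex-1 (Dtx1), a ubiquitin ligase linked to Notch signalling, bears on germinal-centre B cells. It holds 4 libraries labelled DTX1_KO (genotype Dtx1-/-) and 4 labelled WT (genotype Dtx1+/+). All 8 came from spleen on day 10 after immunization, by enrichment on beads coated with peanut agglutinin, a lectin that binds germinal-centre B cells, followed by a flow sort and a droplet receptor kit. Which immunogen was used, how old the mice were and how many contributed is not stated in the labels.

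The libraries held 4585 to 5712 paired cells and 754954 to 1155339 unique molecules (UMIs). Libraries of the same genotype shared 684 to 992 exact receptors per pair of libraries (12 pairs), whereas libraries of different genotype shared 5 to 13 (16 pairs). The 4 libraries of a genotype therefore overlap like portions of 1 pool of cells. Every p between genotypes below compares 2 such pools and measures the spread between their libraries, which may be technical. Every p between classes treats the 8 libraries as separate units, although the same clones recur across the libraries of a pool. There were 978 paired barcodes that occurred in more than 1 library, none with the same heavy CDR3 in both, and 13 IgG3 cells had such a barcode. No exact IgG3 receptor was found in both genotypes, which held 88 in DTX1_KO and 240 in WT libraries. IgG3 cells had a median of 22.9 ± 3.47 heavy-chain UMIs in DTX1_KO libraries and 16.3 ± 2.63 in WT libraries (mean ± SD of 4 library medians), so single base calls rest on several molecules in most cells, and 24 of 375 cells had fewer than 5.

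The heavy-chain CDR3, the junction of V, D and J segments at the centre of the antigen-binding site, identifies a clone. The nucleotide sequences of the 4 clones with most IgG3 cells in each genotype are shown because they hold the most cells of the class. The last place was tied, among 6 DTX1_KO clones of 3 IgG3 cells and 3 WT clones of 6, and was filled in alphabetical order of V gene names. Capitals mark positions that differ among the IgG3 cells of the clone. All lie in the heavy-chain locus on chromosome 12.
KO clone 1, IGHV1-19 with IGHJ2 and IGKV6-17: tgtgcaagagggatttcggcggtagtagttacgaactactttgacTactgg
KO clone 2, IGHV1-9 with IGHJ3 and IGKV3-4: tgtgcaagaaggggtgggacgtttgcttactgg
KO clone 3, IGHV1-12 with IGHJ2 and IGKV14-111: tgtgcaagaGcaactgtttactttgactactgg
KO clone 4, IGHV1-72 with IGHJ4 and IGKV6-14: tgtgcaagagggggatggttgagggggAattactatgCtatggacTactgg
WT clone 1, IGHV5-17 with IGHJ4 and IGKV10-96: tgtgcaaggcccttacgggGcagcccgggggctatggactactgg
WT clone 2, IGHV1-9 with IGHJ2 and IGKV1-117: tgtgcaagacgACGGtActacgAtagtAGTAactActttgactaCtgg
WT clone 3, IGHV1-9 with IGHJ2 and IGKV1-117: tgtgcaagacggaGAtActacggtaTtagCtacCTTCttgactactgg
WT clone 4, IGHV1-53 with IGHJ2 and IGKV9-124: tgtgcAagatcctactttgactactgg

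These clones held 5, 5, 4 and 3 IgG3 cells in DTX1_KO libraries and 13, 9, 7 and 6 in WT libraries. The WT clones shown also held 4, 15, 26 and 21 IgM cells and the DTX1_KO clones none, but over all clones with IgG3 cells 23 of 74 in DTX1_KO and 63 of 161 in WT libraries held IgM cells. WT clones 2 and 3 differed at 12 and 9 of 48 CDR3 positions among their IgG3 cells, against 1 position in each of WT clones 1 and 4. Both were joined by the clone rule used here, which asks for the same V and J genes, the same CDR3 length and at least 0.85 nucleotide identity along a chain of neighbours, so such a clone can hold more than 1 rearrangement of similar sequence.

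IgG3 was a small class, and smaller in DTX1_KO libraries. It made up 7.12, 6.16, 7.97 and 6.90% of switched cells in DTX1_KO libraries 1 to 4, against 21.1, 17.8, 18.6 and 21.1% in WT libraries 1 to 4. The highest DTX1_KO library lay below the lowest WT library. The means were 7.04 ± 0.744% in DTX1_KO and 19.7 ± 1.73% in WT libraries (SD, n = 4 each), a difference of -12.6 percentage points (exact two-sided permutation p = 0.0286, which is the smallest that 70 assignments of 8 libraries allow). As a share of all paired cells IgG3 averaged 0.472 ± 0.0747% in DTX1_KO and 1.46 ± 0.0761% in WT libraries, again without overlap (exact p = 0.0286). Of 11 comparisons of IgG3 cells between the genotypes 4 reached that smallest p, and their Benjamini-Hochberg value was 0.0786, so none passed 0.05 after adjustment.

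**Figure D1:**
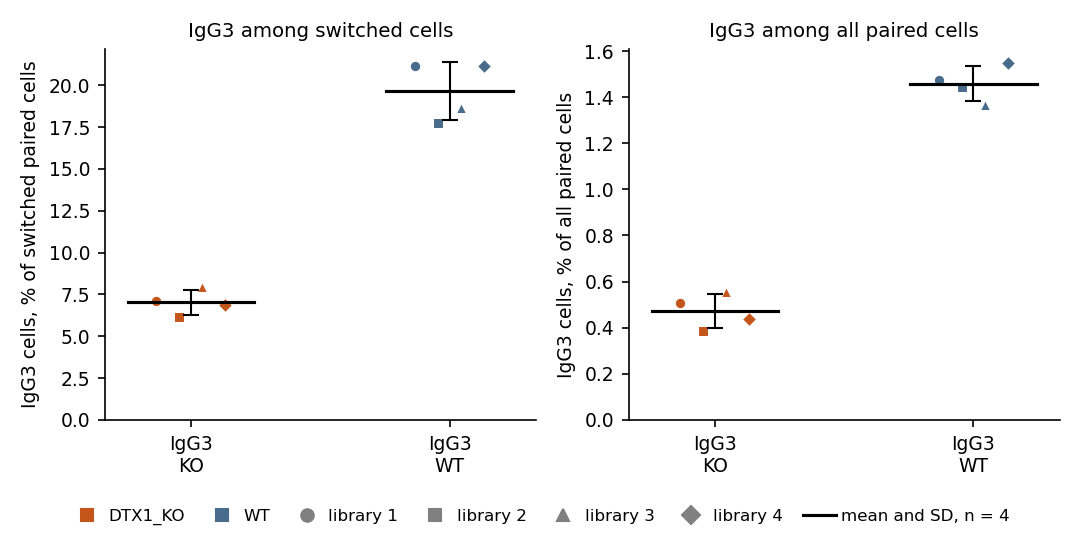
IgG3 cells as a percentage of switched paired cells (left) and of all paired cells (right), with DTX1_KO left of WT; each point is a library, bars are means and whiskers SD (n = 4). The 4 DTX1_KO libraries lie between 6.16 and 7.97% of switched cells, all below the WT libraries at 17.8 to 21.1%.

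The heavy and light V pairs found in most IgG3 clones were IGHV1-9 with IGKV1-117 and IGHV1-9 with IGKV1-110. IGHV1-9 (chromosome 12, 114583569 to 114583862 in mm10) is a member of the large IGHV1 family, and IGKV1-117 (chromosome 6, 68121091 to 68121825) and IGKV1-110 (chromosome 6, 68270527 to 68271265) are kappa genes whose germline sequences here differ at 7 of 276 positions. In DTX1_KO libraries 1 to 4 this combination made up 7.14, 13.6, 19.4 and 22.7% of IgG3 cells, against 2.26, 2.80, 0.984 and 2.00% of IgG1 cells and 0.997, 0.881, 0.810 and 0.977% of IgM cells. In WT libraries 1 to 4 it made up 9.86, 17.9, 12.7 and 9.86% of IgG3 cells, against 5.73, 4.29, 9.09 and 5.23% of IgG1 cells and 2.70, 2.45, 2.62 and 3.01% of IgM cells. Within each of the 8 libraries the IgG3 share was the highest of the 3 classes. The combination was picked from these same cells for its number of IgG3 clones. A high IgG3 share follows in part from that choice and is not independent support. The combination accounted for 50 of 375 IgG3 cells and was not the growth of 1 clone, since it occurred in 10 DTX1_KO and 11 WT clones. In IgG2b cells, another switched class, it made up 1.65 ± 2.12% in DTX1_KO and 9.10 ± 2.43% in WT libraries (SD, n = 4 each, not tested), and in WT libraries 1 and 4 its IgG2b shares of 9.78 and 9.80% were next to the IgG3 share of 9.86%.

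**Figure D2:**
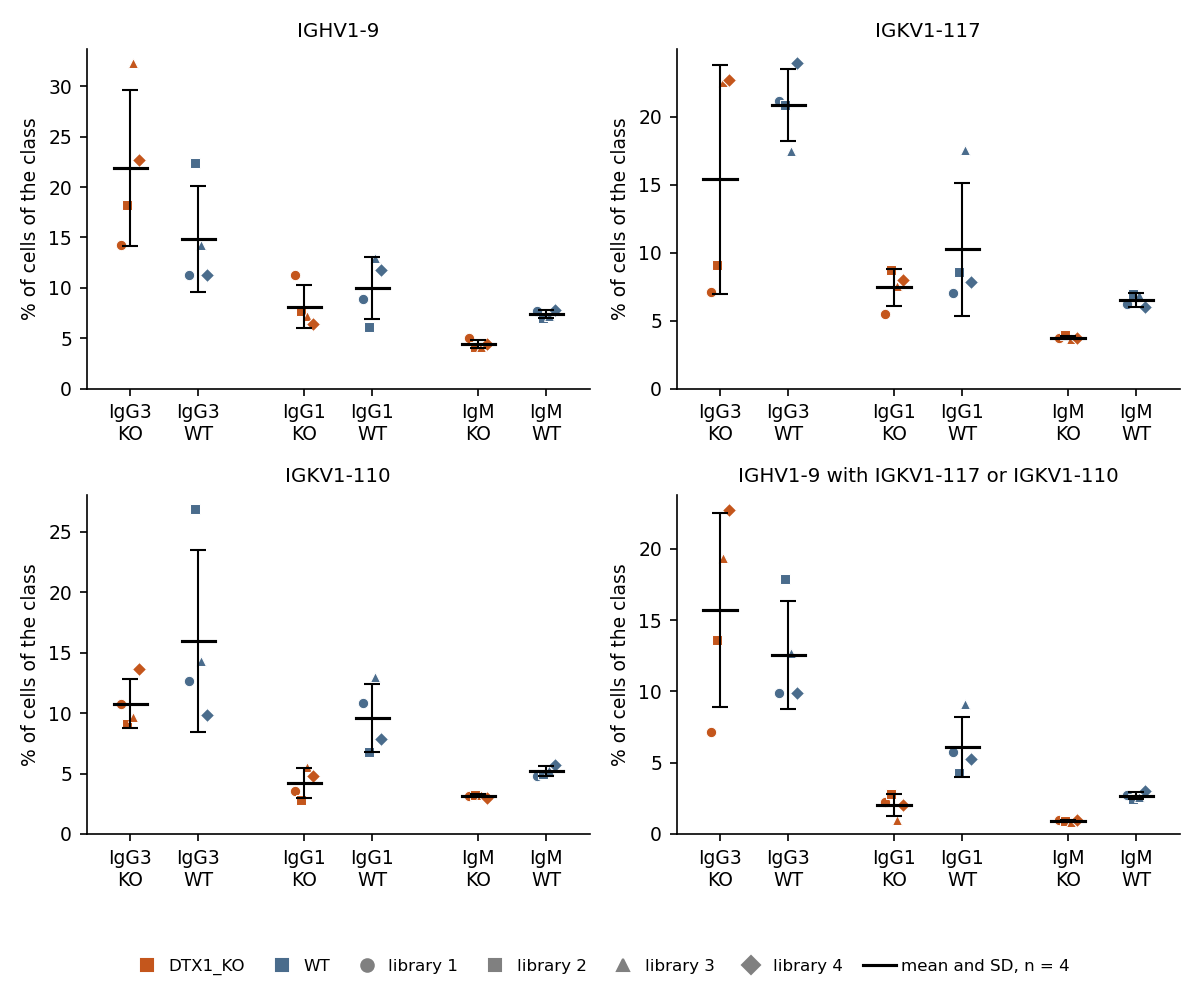
Cells using IGHV1-9, IGKV1-117, IGKV1-110, or IGHV1-9 together with either kappa gene, as a percentage of the cells of a class; IgG3, IgG1 and IgM run left to right, each with DTX1_KO left of WT, points are libraries, bars means and whiskers SD (n = 4). The combination, picked for its number of IgG3 clones, averages 15.7% of IgG3 cells in DTX1_KO and 12.6% in WT libraries, against 2.01 and 6.09% of IgG1 cells and 0.916 and 2.69% of IgM cells.

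The heavy CDR3 sequences of the other IGHV1-9 clones with IGKV1-117 or IGKV1-110 that held at least 2 IgG3 cells are shown next, beside WT clones 2 and 3 above, to let the separate rearrangements be compared. Capitals mark the stretch TACTACGGTAGT, the most common run of 12 bases in the CDR3 of IgM clones assigned to IGHD1-1 (1317 of 1377 clones hold it).
KO with IGHJ4 and IGKV1-110, 3 cells: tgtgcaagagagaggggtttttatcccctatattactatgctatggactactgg
KO with IGHJ3 and IGKV1-117, 3 cells: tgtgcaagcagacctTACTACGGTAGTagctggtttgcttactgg
KO with IGHJ1 and IGKV1-117, 2 cells: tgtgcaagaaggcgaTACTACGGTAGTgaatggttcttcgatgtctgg
KO with IGHJ1 and IGKV1-110, 2 cells: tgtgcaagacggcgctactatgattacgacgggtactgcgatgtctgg
WT with IGHJ2 and IGKV1-110, 5 cells: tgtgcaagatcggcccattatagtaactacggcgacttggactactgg
WT with IGHJ4 and IGKV1-110, 3 cells: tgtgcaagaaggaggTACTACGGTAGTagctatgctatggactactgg
WT with IGHJ2 and IGKV1-110, 3 cells: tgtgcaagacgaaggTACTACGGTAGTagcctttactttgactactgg
WT with IGHJ3 and IGKV1-117, 2 cells: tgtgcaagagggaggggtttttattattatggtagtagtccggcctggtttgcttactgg

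The stretch was in 4 of the 10 clones of this kind with 2 or more IgG3 cells. It was in 31.3% of the IgG3 cells with the combination in DTX1_KO and 35.3% in WT libraries, against 26.1 and 34.2% of the IgG1 cells and 40.3 and 43.3% of the IgM cells with the same combination. In all other IgG3 cells it was in 10.3% in DTX1_KO and 10.9% in WT libraries. A CDR3 of 16 amino acids was found in 6 of 16 DTX1_KO and 28 of 34 WT IgG3 cells with the combination, and in 15.7% of the other IgG3 cells. WT clones 2 and 3, both of this length, held 9 and 7 of the 28. The J segment differed between the genotypes in number, with IGHJ2 in 2 of 16 DTX1_KO cells and 25 of 34 WT cells, and the 4 WT clones with IGHJ2 shown above held 9, 7, 5 and 3 of those 25 cells.

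A fit across all IGHV genes (edgeR's quasi-likelihood test on cells per gene, with each library as a block and Benjamini-Hochberg adjustment) called 16 of 75 genes between IgG3 and IgM cells, 21.3% of those tested, with 8 higher and 8 lower in IgG3 (10.7% each). IGHV1-9 made up 14.3, 18.2, 32.3 and 22.7% of IgG3 cells in DTX1_KO libraries and 11.3, 22.4, 14.3 and 11.3% in WT libraries. Its share of IgM cells was 4.12 to 5.01% in DTX1_KO and 7.02 to 7.76% in WT libraries, below the IgG3 share in 8 of 8 libraries. The log2 fold change of IGHV1-9 was 1.47 ± 0.27 (SE, edgeR adjusted p = 8.00e-06), and it was 1.49 with each clone counted once. Here and below, a clone was counted once within each library. A clone found in several libraries therefore still counted in each of them. IGHV1-42, another IGHV1 gene, was also higher in 8 of 8 libraries, with 6.04% of IgG3 cells and 1.72% of IgM cells on average (log2 fold change 1.65 ± 0.39, edgeR adjusted p = 5.23e-04).

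Of the other genes called higher by the rule used to name them, IGHV5-17, IGHV1-34 and IGHV14-3 had IgG3 cells in WT libraries and none in DTX1_KO libraries. IGHV5-17 had 0 IgG3 cells of 103 in DTX1_KO and 18 of 272 in WT libraries, and 13 of the 18 belonged to WT clone 1. Counted once per clone in each library, neither IGHV5-17 (edgeR adjusted p = 0.137) nor IGHV1-34 (edgeR adjusted p = 0.244) was called. IGHV14-3, with 12 cells in 6 clones, was called (edgeR adjusted p = 0.0122). IGHV1-34 was no longer called without WT library 1, nor IGHV14-3 without WT library 2 or 4. Against IgM, IGHV9-3 was the clearest of the genes that were lower in IgG3, with 3 of 375 IgG3 cells and 1833 of 37489 IgM cells (log2 fold change -2.67 ± 0.64, edgeR adjusted p = 6.84e-04), and it was lower in 8 of 8 libraries. IGHV1-71 and IGHV1-62-2 were also called lower, with 1 and 2 IgG3 cells. Their germline sequences here are identical from framework 1 to framework 3, so the split between these 2 names is uncertain.

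Between IgG3 and IgG1 cells the same fit called 13 of 75 IGHV genes, 17.3% of those tested, with 5 higher (6.67%) and 8 lower (10.7%) in IgG3. Leaving out 1 library gave 3 to 12 calls, and 6 of the 8 libraries lowered the count by more than 1.5 times. IGHV1-9 was higher in 7 of 8 libraries, with 18.3 ± 7.19% of IgG3 cells and 9.05 ± 2.64% of IgG1 cells (SD, n = 8; log2 fold change 0.82 ± 0.29, edgeR adjusted p = 0.0418). With each clone counted once its edgeR adjusted p was 0.0598. IGHV5-17 was higher (log2 fold change 3.06 ± 0.58), again not when clones were counted once (edgeR adjusted p = 0.0852). IGHV1-84 had 5 of 375 IgG3 cells in 2 DTX1_KO clones and 0 of 1778 IgG1 cells, at least 7.90-fold higher against a floor of 3 cells in the IgG1 class. That bound counts the cells of 1 clone as separate cells, so it does not hold for clones. IGHV2-6 was higher with 6 IgG3 cells and 3 IgG1 cells, and IGHV9-3, IGHV1-59, IGHV1-55, IGHV1-80 and IGHV2-2 were lower, with 0 to 7 IgG3 cells each. With each clone counted once IGHV1-55 (edgeR adjusted p = 0.161), IGHV1-80 (0.0778) and IGHV2-2 (0.219) were not called, and leaving out 1 library ended these calls in 6, 6 and 7 of 8 fits.

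These calls depend on how the classes are scaled. Scaled by the number of cells of a class, the median log2 fold change over the 75 genes was -0.67 against IgM and -0.32 against IgG1. With TMM factors it was -1.87 and -1.42. The split of calls was then 2 higher and 36 lower against IgM, and 2 higher and 22 lower against IgG1. DESeq2 with the cell-number scaling called 10 higher and 5 lower against IgM, and 5 higher and 1 lower against IgG1. IGHV1-9 kept its direction with TMM factors against IgM but not its call (log2 fold change 0.21, edgeR adjusted p = 0.520).

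The light chains of IgG3 cells were also led by few genes. IGKV1-117 was used by 73 of 375 IgG3 cells and IGKV1-110 by 54, followed by IGKV10-96 and IGKV14-111 with 24 each, IGKV6-15 with 22 and IGKV2-137 with 12. IGKV1-117 made up 7.14, 9.09, 22.6 and 22.7% of IgG3 cells in DTX1_KO libraries and 21.1, 20.9, 17.5 and 23.9% in WT libraries, against 3.65 to 3.92% of IgM cells in DTX1_KO and 5.98 to 6.99% in WT libraries. All 8 libraries had more of it in IgG3 than in IgM. The fit across light V genes called 4 of 76 against IgM, 5.26% of those tested. IGKV1-117 (log2 fold change 1.82 ± 0.27, edgeR adjusted p = 1.62e-09) and IGKV1-110 (1.60 ± 0.31, edgeR adjusted p = 1.27e-05) were higher, and both were also called with each clone counted once.

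The 2 light genes called lower had no IgG3 cell. IGKV9-120 had 0 of 375 IgG3 cells, which allows a share of up to 0.8%, and 1.94% of IgM cells, at least 2.42-fold lower in IgG3. Its call was lost without WT library 1, 2 or 3. IGKV4-72 had 0 of 375 IgG3 cells and 1.35% of IgM cells, at least 1.69-fold lower, and its call was lost whenever a library was left out. Against IgG1, 2 of 76 light V genes were called, 2.63% of those tested, both higher. IGKV1-117 averaged 18.1 ± 6.48% of IgG3 cells and 8.84 ± 3.66% of IgG1 cells (SD, n = 8; log2 fold change 1.02 ± 0.29, edgeR adjusted p = 0.0130). It was no longer called when DTX1_KO library 3 or WT library 1, 2 or 4 was left out, and with TMM factors its log2 fold change was 0.02. The median log2 fold change over the 76 light genes was -1.13 against IgM and -0.60 against IgG1, and with TMM factors -2.19 and -1.74, where 1 gene was called higher and 41 lower against IgM, and 1 higher and 22 lower against IgG1. IGKV4-57-1 had 8 IgG3 cells, all in WT libraries, and 2 IgG1 cells.

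The use of IGKV1-117 and IGKV1-110 went beyond the IGHV1-9 receptors in WT libraries. Without IGHV1-9, either gene was found in 24.2 ± 4.42% of WT IgG3 cells, against 22.4 ± 2.91% of WT IgG2b cells, 13.8 ± 5.16% of WT IgG1 cells and 9.02 ± 0.601% of WT IgM cells (SD, n = 4). In DTX1_KO libraries the same shares were 10.4 ± 4.13% of IgG3 cells, 8.74 ± 3.86% of IgG2b cells, 9.61 ± 2.35% of IgG1 cells and 6.00 ± 0.245% of IgM cells, and those of IgG3, IgG2b and IgG1 lay within the spread of each other, as did those of IgG3 and IgG2b in WT libraries. IGHV1-9 with any other light chain made up 6.15 ± 5.38% of IgG3 cells in DTX1_KO and 2.22 ± 1.51% in WT libraries, close to its IgG1 shares of 6.14 ± 2.08 and 3.86 ± 1.97%. Its IgM shares were 3.52 ± 0.342 and 4.72 ± 0.217%. In WT libraries 1 to 4 it made up 1.41, 4.48, 1.59 and 1.41% of IgG3 cells, below 5.02, 4.57, 4.55 and 4.74% of IgM cells. The WT excess of IGHV1-9 over IgM thus lay in the cells with IGKV1-117 or IGKV1-110. These shares were not tested.

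By the number of clones, the leading pairs of IgG3 were IGHV1-9 with IGKV1-117 (12 clones, 30 cells), IGHV1-9 with IGKV1-110 (9 clones, 20 cells), IGHV1-42 with IGKV1-117 (7 clones, 12 cells), IGHV1-81 with IGKV1-117 (6 clones, 6 cells) and IGHV1-81 with IGKV1-135 (5 clones, 9 cells). A fit across 121 pairs, added after the data were seen, called 8 against IgM, 6.61% of those tested, with 5 higher (4.13%) and 3 lower (2.48%). Against IgG1 it called 4, 3.31%, with 2 in each direction (1.65%). IGHV1-9 with IGKV1-110 was among them and IGHV1-9 with IGKV1-117 was not (log2 fold change 1.30, edgeR adjusted p = 0.0509). The largest log2 fold change among the 5 called higher against IgM was that of IGHV1-75 with IGKV1-110 (3.45 ± 0.84, edgeR adjusted p = 0.00316), which rested on 5 IgG3 cells, all in WT libraries, and was singled out after its value was seen. IGHV1-9 with IGKV1-117 made up 8.30 ± 4.23% of IgG3 cells and 1.10 ± 0.682% of IgM cells (SD, n = 8; log2 fold change 2.70 ± 0.40, edgeR adjusted p = 2.68e-09), and IGHV1-9 with IGKV1-110 made up 5.85 ± 2.75 and 0.704 ± 0.293% (log2 fold change 2.82 ± 0.50, edgeR adjusted p = 1.09e-06). Both signs turn with TMM factors, to -0.65 and -0.56, where the median over all pairs was -4.57 against -4.18 otherwise, and 112 pairs were called lower and none higher. DESeq2 called 17 higher and 1 lower. At the other end, IGHV1-62-2 with IGKV2-137, found in 880 IgM cells (2.35%) and 30 IgG1 cells (1.69%), had no IgG3 cell, at least 2.93-fold lower than IgM and 2.11-fold lower than IgG1.

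The B-1-associated genes IGHV11-2, IGHV12-3 and IGHV7-1 were each absent from the 375 IgG3 cells. B-1 cells are an innate-like lineage known for natural antibody. The count of 0 allows up to 0.8%, and IGHV12-3 made up 0.966% of IgM cells, while the other 2 were below that limit in IgM too. IGHV1-72, known for the response of C57BL/6 mice to the nitrophenyl hapten, was used by 10 IgG3 cells (2.67%), against 1.86% of IgG1 and 2.97% of IgM cells. The order differed by genotype. In WT libraries the 3 shares were 2.57, 0.957 and 1.99%. In DTX1_KO libraries it was 2.91% of IgG3 cells, against 1.64 to 3.87% of IgG1 and 3.64 to 4.09% of IgM cells in single libraries. The lambda genes that go with the nitrophenyl response were rare, with 9 IgG3 cells using IGLV1, all in WT libraries, 1 using IGLV2 and none using IGLV3. Lambda chains averaged 2.04 ± 2.95% of IgG3, 3.14 ± 1.04% of IgG1 and 4.67 ± 1.74% of IgM cells (SD, n = 8). IgG3 minus IgM was -2.63, lower in 6 of 8 libraries (exact sign-flip permutation p = 0.03125, adjusted 0.03125). That call was lost in 6 of 8 fits that left out a library. The difference from IgG1 was not called (exact p = 0.375). IGHV1-72 was not called in any of the fits.

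D segments were assigned in few cells of any class: 281 of 375 IgG3 cells had none, and in single libraries the share without a D call ran from 71.4 to 81.8% of IgG3 cells, 75.2 to 83.4% of IgG1 cells and 76.0 to 77.7% of IgM cells. Among the IgG3 cells with a call, IGHD1-1 was named in 27, IGHD2-6 in 25, IGHD2-8 in 12, IGHD2-7 in 11 and IGHD2-3 in 6. IGHD2-6 stood at 6.67% of all IgG3 cells, against 1.97% of IgG1 and 2.07% of IgM cells, in 15 IgG3 clones (not tested). These shares mix the genotypes unequally, since WT libraries held 272 of 375 IgG3 but 627 of 1778 IgG1 cells. Within WT libraries IGHD2-6 was in 7.35% of IgG3, 4.63% of IgG1 and 2.19% of IgM cells. By clone the WT shares were 6.83, 5.30 and 2.28%. IGHJ1 was used by 12.1 ± 2.52% of IgG3 cells and 17.3 ± 1.53% of IgM cells (SD, n = 8), lower in 8 of 8 libraries (exact sign-flip permutation p = 0.00781, adjusted over 4 J genes 0.0312). IGHJ2, IGHJ3 and IGHJ4 made up 35.9, 27.1 and 24.9% of IgG3 cells, and none of their differences from IgM, from IgG1 or between the genotypes was called.

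Between the genotypes, 1 of 13 IGHV genes with enough IgG3 cells was called, 7.69% of those tested, and 1 of 12 light V genes, 8.33%. IGHV5-17 had 0, 0, 0 and 0 cells in DTX1_KO libraries and 8, 2, 3 and 5 in WT libraries, so it was at least 2.27-fold lower in DTX1_KO (edgeR adjusted p = 0.0112, not called without DTX1_KO library 3 or WT library 4). IGKV6-17 had 1, 3, 3 and 2 IgG3 cells in DTX1_KO libraries and none in WT libraries, where 0 of 272 allows up to 1.10%. By cells it was at least 7.92-fold higher in DTX1_KO (edgeR adjusted p = 0.00391). Both genes passed the filter of 8 IgG3 cells through the cells of 1 genotype only. Both bounds count the cells of 1 clone as separate cells, so they do not hold for clones. Neither gene's groups overlapped, but the groups of IGHV1-19 and IGHV14-3, which were not called, did not overlap either. Each called gene rested on few clones, 4 for IGHV5-17 and 3 for IGKV6-17, of which KO clone 1 held 5 of 9 cells. No IGHV or light V gene was called with each clone counted once (unadjusted p under 0.05 for 4 and 1 genes) or by DESeq2 (1 and 1 genes). IGHV1-9 averaged 21.9 ± 7.74% of IgG3 cells in DTX1_KO and 14.8 ± 5.25% in WT libraries, with overlapping groups (edgeR adjusted p = 0.273). IGHV1-81, with 27 cells the second most used, had 2.59 ± 3.39% in DTX1_KO and 8.94 ± 3.71% in WT libraries (edgeR adjusted p = 0.122), and IGHV1-19 had 8.84 ± 4.11% in DTX1_KO and 2.15 ± 1.84% in WT libraries (edgeR adjusted p = 0.0598). IGHV14-3 had 0 cells in DTX1_KO and 12 in WT libraries (edgeR adjusted p = 0.0598).

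IgG3 heavy chains were more mutated than IgM heavy chains, and less mutated in DTX1_KO than in WT libraries. Somatic hypermutation adds base changes to rearranged V genes during the germinal-centre reaction. It was measured as the percentage of IGHV nucleotides that differ from the germline inferred from the same libraries. It was 1.2, 1.07, 0.962 and 0.955% in DTX1_KO libraries and 1.28, 1.5, 1.58 and 1.29% in WT libraries, with no overlap. The difference of the means, 1.05 ± 0.116% in DTX1_KO and 1.41 ± 0.153% in WT libraries (SD, n = 4 each), was -0.366 (exact permutation p = 0.0286, adjusted 0.0786). The call was lost without WT library 2 or WT library 3 (exact p = 0.0571 for both). Cells with 6 or more mutations made up 10.7% of IgG3 cells in DTX1_KO and 25.8% in WT libraries, and the median cell had 3 and 4 mutations.

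IgM and IgG1 cells of the same libraries carried the same order of the genotypes. IgG1 had 0.826 to 0.905% in DTX1_KO and 1.25 to 1.37% in WT libraries, and IgM 0.156 to 0.186% in DTX1_KO and 0.347 to 0.375% in WT libraries. IgG3 exceeded IgM by 0.961 ± 0.157 percentage points (SD of 8 within-library differences, higher in 8 of 8 libraries, exact sign-flip permutation p = 0.00781, adjusted 0.00938). It exceeded IgG1 by 0.145 ± 0.142, in 6 of 8 libraries (exact p = 0.0391, adjusted over 6 measures 0.0938). The excess over IgG1 was no longer called without the IGHV1-9 cells with IGKV1-117 or IGKV1-110 (0.126, exact p = 0.0781), and p missed the threshold in 6 of 8 fits that left out a library, where the excess ran from 0.123 to 0.177. The excess was 0.191 ± 0.0819 in DTX1_KO and 0.0983 ± 0.187 in WT libraries, and the test of that difference gave an exact permutation p of 0.4.

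**Figure D3:**
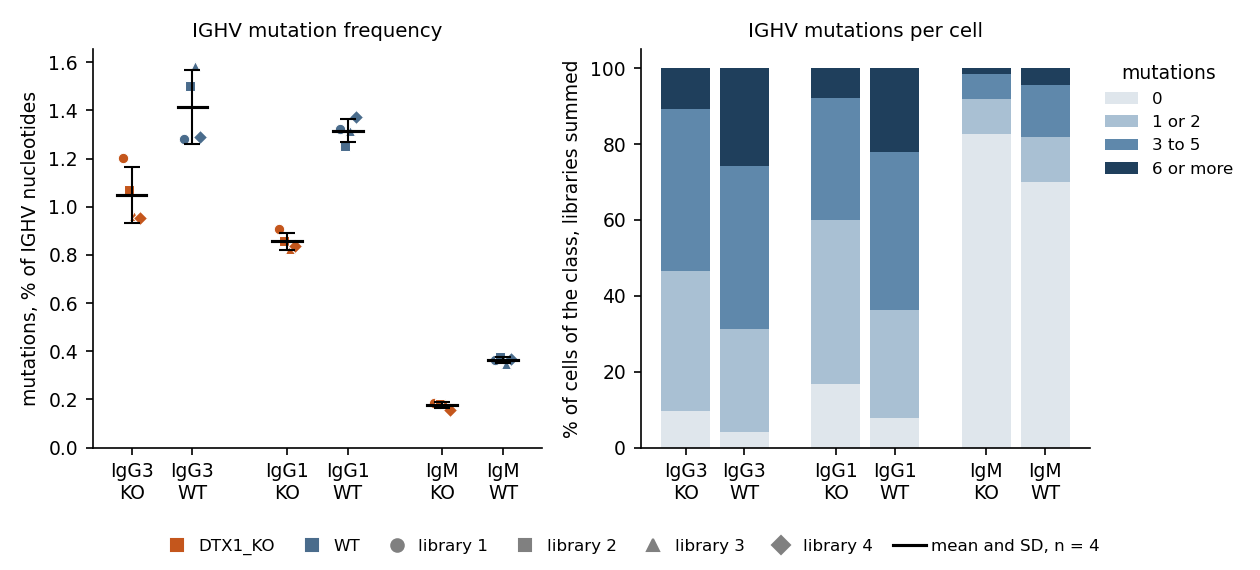
IGHV mutation frequency per library (left; points are libraries, bars means, whiskers SD, n = 4) and the share of cells by number of IGHV mutations with the libraries of a genotype summed (right), for IgG3, IgG1 and IgM, each with DTX1_KO left of WT. IgG3 lies at 1.05% in DTX1_KO and 1.41% in WT libraries, and 9.71 and 4.06% of its cells carry no mutation.

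Unmutated cells were 9.23 ± 4.96% of IgG3 cells in DTX1_KO and 3.98 ± 2.04% in WT libraries, with overlapping groups (exact permutation p = 0.0857). In IgM cells they were 82.6% of the summed cells in DTX1_KO and 69.96% in WT libraries, so IgG3 had 69.7 percentage points fewer (-69.7 ± 5.44, lower in 8 of 8 libraries, exact p = 0.00781, adjusted 0.00938). Kappa V genes of IgG3 cells carried 0.483 ± 0.140% in DTX1_KO and 0.587 ± 0.0850% in WT libraries (exact permutation p = 0.314). Lambda chains were not included. The kappa value was above IgM by 0.402 ± 0.111 in 8 of 8 libraries (exact p = 0.00781, adjusted 0.00938). Its difference from IgG1 was -4.88e-04 (exact p = 0.992).

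Mutations lay more densely in the CDRs, the loops that touch antigen, than in the framework. In IgG3 cells CDR1 and CDR2 together carried 1.89 ± 0.233% in DTX1_KO and 3.23 ± 0.402% in WT libraries, against 0.911 ± 0.137 and 1.13 ± 0.123% in the framework regions. CDR2 was the densest, with 2.65 ± 0.157% in DTX1_KO and 4.17 ± 0.790% in WT libraries, where IgG1 had 1.90 ± 0.173 and 3.41 ± 0.245%. CDR1 of IgG3 had 1.27 ± 0.379% in DTX1_KO and 2.44 ± 0.556% in WT libraries, where IgG1 had 1.67 ± 0.0879 and 2.24 ± 0.254%. The CDR over framework ratio of IgG3 was 2.12 ± 0.431 in DTX1_KO and 2.88 ± 0.227 in WT libraries. For IgG1 it was 2.50 ± 0.150 and 2.56 ± 0.0391, and for IgM 2.38 ± 0.226 and 2.50 ± 0.0950. Replacement changes made up 74.3 ± 7.78% and 75.2 ± 4.48% of IgG3 mutations. The region values were not tested.

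In IGHV1-9, 6 changes recurred in 4 or more IgG3 clones, of which 5 lay in or just after CDR2 and 1, C236T, in framework 3. The germline from base 151 to 190, counted from the first base of framework 1 with CDR2 at 154 to 171, is shown with the 4 positions of those 5 changes in capitals.
IGHV1-9 germline: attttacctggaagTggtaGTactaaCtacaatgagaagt

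T171A, a replacement, was found in 12 of 63 IgG3 cells with IGHV1-9, in 9 of 29 clones and in both genotypes. It was in 7.64% of IgG1 cells and 2.07% of IgM cells with the gene. G170A was in 7 IgG3 cells of 6 clones (11.1%), against 3.82% of IgG1 and 2.07% of IgM cells, and T165A in 9 cells of 5 clones (14.3%), against 6.37% of IgG1 and 3.55% of IgM cells. C177G, in framework 3, was in 7.94% of IgG3 and 15.9% of IgG1 cells, but in 17.2% of IgG3 and 15.7% of IgG1 clones. In IGHV1-42, G161A in CDR2 was in 5 of 15 IgG3 clones, and in IGHV14-3, A98T in framework 2 was in 4 of 6. The changes were picked because they recurred in 4 or more IgG3 clones, which favours high IgG3 shares. IgM shares are also low because 82.6% of IgM cells in DTX1_KO and 69.96% in WT libraries had no IGHV mutation. The shares therefore do not show that a change is particular to IgG3, and they were not tested.

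WT clone 1 showed how IgG3 cells of 1 clone differed. Its 13 IgG3 cells, 6, 2, 2 and 3 in WT libraries 1 to 4, carried 0 to 8 IGHV mutations with a median of 4. In IGHV5-17, 5 IgG3 cells shared 4 changes: the silent A123T, and the replacements G161C, A194G and A250G. They came from WT libraries 1 and 2, with 4 and 1 cells. None of the 4 IgM cells of the clone had any of these 4 changes, and 1 of the other IgG3 cells had A194G alone of them. The germline and 4 of the cells are shown over 81 bases from base 121, counted from the first base of framework 1 with CDR2 at 154 to 171, with bases that differ from the germline in capitals.
Germline: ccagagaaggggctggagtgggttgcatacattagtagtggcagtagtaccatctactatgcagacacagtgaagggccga
IgG3 cell with the shared changes: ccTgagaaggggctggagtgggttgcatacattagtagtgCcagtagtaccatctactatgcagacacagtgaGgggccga
IgG3 cell with the shared changes and others: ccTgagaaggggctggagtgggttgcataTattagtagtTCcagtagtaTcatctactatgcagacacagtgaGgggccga
IgG3 cell outside that branch: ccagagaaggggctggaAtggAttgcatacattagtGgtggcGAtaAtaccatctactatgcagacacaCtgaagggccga
IgM cell of the same clone: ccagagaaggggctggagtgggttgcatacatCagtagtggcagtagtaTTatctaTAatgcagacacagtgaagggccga

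The heavy CDR3 of IgG3 cells was longer and more positively charged than that of IgM cells. Its mean length was 15.0, 14.7, 15.4 and 14.8 amino acids in DTX1_KO libraries and 14.7, 14.8, 14.6 and 14.7 in WT libraries, with overlapping groups (means 15.0 ± 0.279 and 14.7 ± 0.0596, exact permutation p = 0.0571). The length exceeded that of IgM cells by 0.459 ± 0.210 amino acids in 8 of 8 libraries (exact p = 0.00781, adjusted 0.00938), and that of IgG1 cells by 0.544 ± 0.382 in 7 of 8 (exact p = 0.0156, adjusted 0.0938). In IgG2b cells it was 14.2 ± 0.328 in DTX1_KO and 14.7 ± 0.337 in WT libraries (not tested). In WT libraries 1, 3 and 4 the IgG2b mean was above that of IgG3.

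Net charge, a measure added after the data were seen, counts lysine and arginine minus aspartate and glutamate over the whole CDR3. It was 0.286, 0.318, 0.419 and 0.227 in IgG3 cells of DTX1_KO libraries and 0.437, 0.761, 0.508 and 0.507 in those of WT libraries. In IgG1 cells it was -0.064 to -0.0175 in DTX1_KO and 0.0131 to 0.266 in WT libraries, and in IgM cells -0.148 to -0.0853 and -0.0566 to 0.00306. The IgG3 mean was the highest of the 3 classes in each of the 8 libraries. It exceeded IgM by 0.502 ± 0.133 and IgG1 by 0.398 ± 0.132 (SD, n = 8; exact sign-flip permutation p = 0.00781 for both, adjusted over 4 added tests 0.0156). IGHV1-9 cells with IGKV1-117 or IGKV1-110 had a mean charge of 1.24 and the other IgG3 cells 0.372. Without that combination in any class the excess was 0.424 over IgM and 0.349 over IgG1 (exact p = 0.00781 for both).

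**Figure D4:**
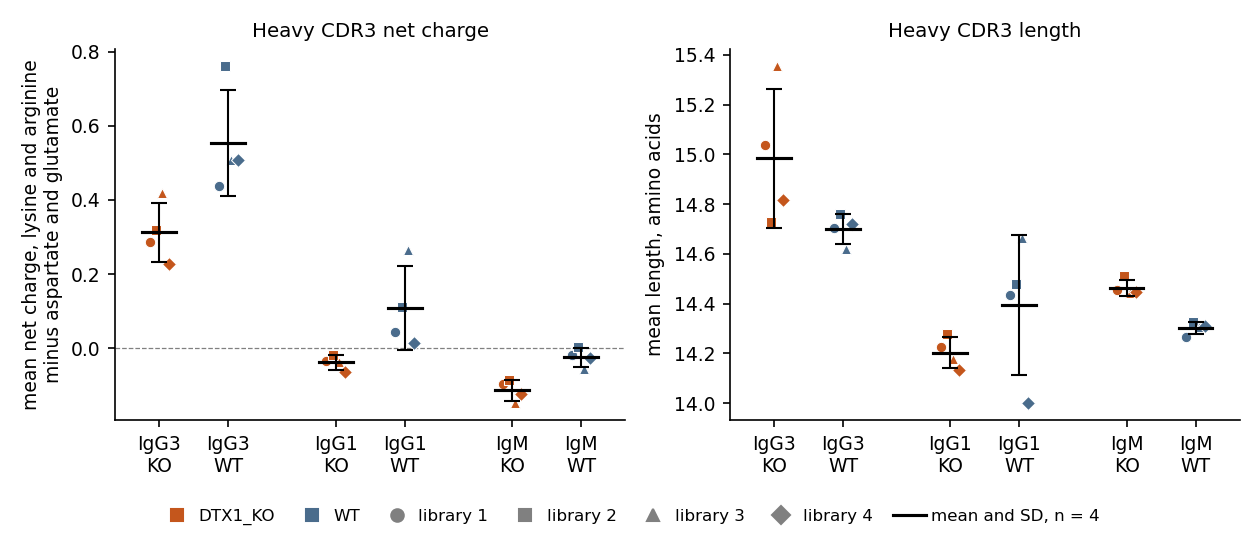
Mean net charge (left, lysine and arginine minus aspartate and glutamate) and mean length in amino acids (right) of the heavy CDR3 per library, for IgG3, IgG1 and IgM, each with DTX1_KO left of WT; points are libraries, bars means and whiskers SD (n = 4), and the length axis does not start at 0. The IgG3 charge averages 0.313 in DTX1_KO and 0.553 in WT libraries, above IgG1 and IgM in every library.

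Counted by cell, fewer IgG3 cells of DTX1_KO than of WT libraries had IgM relatives. Counted by clone the shares were closer, with an IgM cell in 31.1% of the IgG3 clones in DTX1_KO and 39.1% in WT libraries with the 4 libraries of a genotype summed. An IgM clone mate, an IgM cell of the same clone in any library of the genotype, was found for 25.0, 27.3, 29.0 and 36.4% of IgG3 cells in DTX1_KO libraries 1 to 4, against 62.0, 52.2, 52.4 and 50.7% in WT libraries 1 to 4. The groups did not overlap, with 29.4 ± 4.92% in DTX1_KO and 54.3 ± 5.15% in WT libraries (SD, n = 4 each; difference -24.9 percentage points, exact permutation p = 0.0286, adjusted 0.0786). With each clone counted once within a library the difference was -19.97 (exact p = 0.0286). DTX1_KO libraries held 20342 IgM cells in 9543 clones, and WT libraries 17147 in 6804 clones. How these numbers bear on the share with a mate was not tested. With clones restricted to identical CDR3 nucleotides the difference was -11.0 (exact p = 0.0857) and no longer called.

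The same share for IgG1 cells was 34.6 ± 2.25% in DTX1_KO and 34.8 ± 9.28% in WT libraries, and for IgG2b cells 34.1 ± 5.41 and 38.8 ± 4.42%. The difference between IgG3 and IgG1 was -5.17 ± 6.07 percentage points in DTX1_KO and 19.5 ± 11.2 in WT libraries. These differences differed by -24.7 (exact permutation p = 0.0286, adjusted over 4 added tests 0.0381; a comparison chosen after the data were seen). Without DTX1_KO library 1 it was no longer called, with a range of -28.0 to -21.1 over the fits that left out 1 library.

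**Figure D5:**
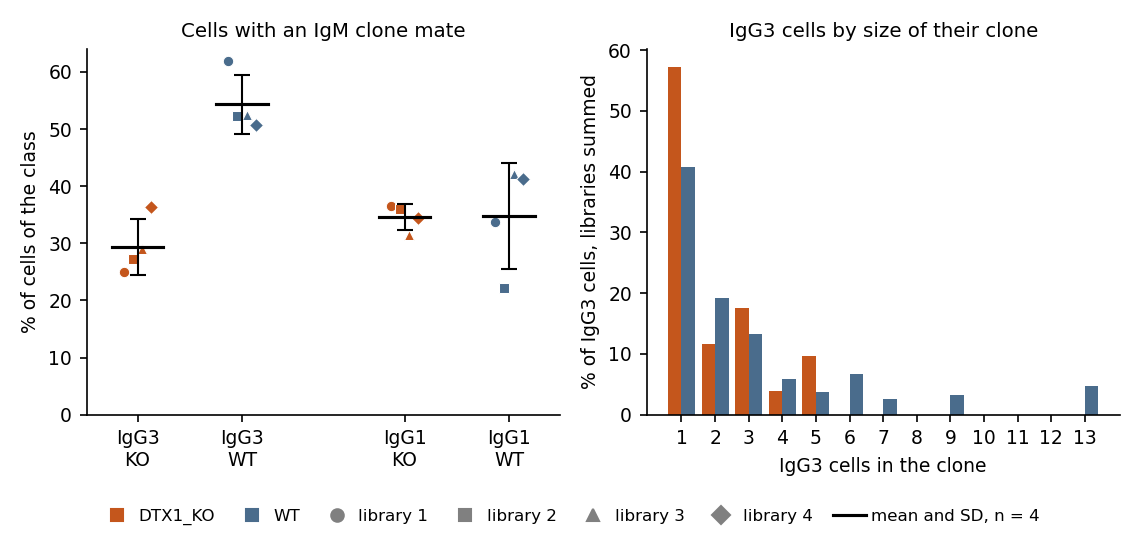
Left, the percentage of IgG3 and IgG1 cells with an IgM cell in their clone, DTX1_KO left of WT; points are libraries, bars means and whiskers SD (n = 4). Right, the percentage of IgG3 cells by the number of IgG3 cells in their clone, libraries summed (DTX1_KO left, WT right at each size). The 4 DTX1_KO libraries lie at 25.0 to 36.4% of IgG3 cells with an IgM mate and the 4 WT libraries at 50.7 to 62.0%.

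The 103 IgG3 cells of DTX1_KO libraries fell into 74 clones and the 272 of WT libraries into 161. A single IgG3 cell was seen in 59 of 74 and 111 of 161 clones. Of the 15 DTX1_KO clones with 2 or more IgG3 cells 12 were found in more than 1 library, as were 43 of the 50 WT clones. Cells in such clones made up 43.7 ± 13.4% of IgG3 cells in DTX1_KO and 59.0 ± 7.33% in WT libraries (exact permutation p = 0.114), a share that grows with the number of cells sampled. IgG1 mates were found for 15.8 ± 5.77% of IgG3 cells in DTX1_KO and 28.1 ± 3.97% in WT libraries (exact permutation p = 0.0571), and the sign turned with clones defined within a library (0.184) or by identical CDR3 (3.32). IgG2b mates were found for 3.40 ± 3.93% in DTX1_KO and 12.03 ± 4.77% in WT libraries. No other cell of any class was in the clone of 35 of 103 DTX1_KO and 66 of 272 WT IgG3 cells.

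Within mixed clones the IgG3 cells tended to carry more IGHV mutations than their IgM relatives. In 23 DTX1_KO clones with both classes IgG3 averaged 3.46 mutations and IgM 2.25, and IgG3 was higher in 17 and lower in 5. In 63 WT clones IgG3 averaged 3.8 and IgM 3.42, higher in 33 and lower in 21. An unmutated IgM cell was present in 7 of the 23 and 17 of the 63 clones. Against IgG1 relatives IgG3 was higher in 4 and lower in 5 of 9 DTX1_KO clones, and higher in 16 and lower in 16 of 33 WT clones. Clones of a genotype come from 1 pool, and these counts were not tested.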

How the data were processed

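The deposited tables list assembled receptor contigs per library. Per the file headers, each contig has a read count and a UMI count as the authors deposited them, whole numbers without normalization. Cell Ranger (no version recorded), R 4.3.1 and build mm10 are named in the submitters' processing notes. All 104649 contigs were marked as cell, high confidence, full length and productive. Barcodes with several heavy or light chains were left out, and no doublet caller was run.

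The members and the gene lists were chosen with earlier results of these data known. Class was the heavy constant gene. Germlines were the most common framework 1 to framework 3 sequence over clones, for genes with at least 20 clones (77 of 97 IGHV genes), and 1 IgG3 cell had no mutation value. Clones shared V and J genes of both chains and CDR3 length, joined at an identity of at least 0.85 over the libraries of a genotype. Single values used exact two-sided permutation tests over 70 assignments of libraries, or sign flips of 8 within-library differences, called at p under 0.05. The number of cells using each gene was fitted in edgeR 4.0.16 (quasi-likelihood, cells of the class as library size, Benjamini-Hochberg) for genes with at least 50 cells over classes, or 8 IgG3 cells between genotypes. DESeq2 1.42.0, TMM factors, no filter, no block, each clone counted once within a library, at least 5 or 10 to 40 UMIs, germlines from 50 clones, other clone rules and leaving out libraries were alternatives. The steps were tested on simulated data.

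Named were the 10 IGHV and 6 light V genes most used by IgG3 cells, up to 8 called genes per fit, all J and the 5 most used D genes, B-1, nitrophenyl and lambda genes, the 5 pairs in most clones and the 4 largest clones of each genotype. Only those with a call or a value that bears on one are described. Symbols and coordinates come from a RefSeq table of GRCm38.p6, where all 48 genes looked up matched. Same-numbered libraries of the genotypes did not deviate together in IGHV use (correlations of -0.240 to -0.0623 over 75 genes), so the numbers were not taken as pairs. Software was R 4.3.3, SciPy 1.17.1, matplotlib 3.10.9, Python 3.11.15, Biopython 1.88, NumPy 2.4.6 and pandas 2.3.3. Precision is limited by the 22 to 71 IgG3 cells of a library, and floors and counts cover counting error only.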

Additional observations from a re-analysis of the deposited data

Results flagged for a closer look

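Of the 22 sets of 4 libraries examined for a value far from the rest, 3 held one, where chance gives about 1 in 20. DTX1_KO library 3 had a lambda share of 3.23% of its IgG3 cells, from 1 cell, while the other 3 had none. WT library 1 had an IgM clone mate for 62.0% of its IgG3 cells, with the nearest WT library at 52.4%. DTX1_KO library 4 had 63.6% of its IgG3 cells in clones of 2 or more IgG3 cells, with the nearest DTX1_KO library at 39.3%.

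Among 15 class differences compared between the genotypes, 2 differed. The median heavy-chain UMI count of IgG3 cells minus that of IgM cells was -18.6 in DTX1_KO and -8 in WT libraries, a difference of -10.6 (exact permutation p = 0.0286). Both classes had more UMIs in DTX1_KO libraries. The IgM medians averaged 41.5 in DTX1_KO and 24.25 in WT libraries, and those of IgG3 22.9 and 16.25. The gap was not scaled to these levels. Over all 8 libraries the gap was -13.3 ± 6.33, lower in IgG3 in 8 of 8 (exact sign-flip permutation p = 0.00781, adjusted 0.00938). The share of cells with an IgM clone mate, IgG3 minus IgG1, was -5.17 in DTX1_KO and 19.5 in WT libraries, a difference of -24.7 (exact permutation p = 0.0286).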

How the results depend on the processing

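Of 1088 alternative values, 13 for the comparisons of classes and genotypes and 20 for single genes, pairs or J shares changed direction. Values named here were called in one setting and not in another, or changed sign, and the cause was not tested unless given. Alternatives without the IGHV1-9 combination, with identical CDR3, and for pairs, net charge and the IgG3 minus IgG1 mate comparison were chosen after seeing the data.

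Library numbers do not pair the samples. With the number as a replicate block the differences between DTX1_KO and WT were -12.6 and -0.986 for the IgG3 shares of switched and paired cells, -0.366 for IGHV mutation, -24.9 for IgM mates and -24.7 for IgM mates, IgG3 minus IgG1, each with an exact p = 0.125, the smallest that 4 pairs allow. The block left 1 call each among IGHV and light genes.

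With 10 to 40 heavy UMIs, DTX1_KO minus WT was -2.84 for unmutated IgG3 cells, -18.4 for IgG1 mates, -26.3 for the mate comparison of IgG3 minus IgG1 and -4.53 for IGHJ1; IgG3 minus IgM was -2.81 for lambda and -2.25 for UMIs; IgG3 minus IgG1 was -8.29 for unmutated cells and 0.0192 for IGKV mutation. With at least 5 UMIs, IgG1 mates were -16.6 and IGHJ3 -0.334. With each clone counted once, DTX1_KO minus WT was -11.7 for IgG1 mates, 7.19 for UMIs and -0.684 for IGHJ3, and IgG3 minus IgG1 was 0.0157 for IGKV mutation and -0.456 for IGHJ3. With identical CDR3, DTX1_KO minus WT was -11.03 for IgM mates, 3.32 for IgG1 mates and 1.91 for clones of 2 or more. Clones within a library gave 0.184 for IgG1 mates and -15.3 for the mate comparison, and identity 0.80 gave -12.6 for IgG1 mates. Germlines from 50 clones gave 0.0017 for IGKV mutation against IgG1. Without the IGHV1-9 combination, lambda against IgM was -2.42, and against IgG1 IGHV mutation was 0.126, IGKV mutation 0.0103 and UMIs 3.5; DTX1_KO minus WT was -0.0472 for the IGHV mutation difference of IgG3 minus IgG1 and -21.1 for the mate comparison.

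Calls of IGHV genes against IgM were 38 with TMM and 8 with each clone once; against IgG1 24 with TMM, 6 with DESeq2, 7 with no filter and 4 with each clone once; between genotypes 3 with TMM, 3 with no filter, 0 with DESeq2 and 0 with each clone once. Light genes gave 42 and 23 calls with TMM against IgM and IgG1, and between genotypes 0 with DESeq2 and 0 with each clone once (unadjusted p under 0.05 for 1 each). With TMM, IGHV1-9 with IGKV1-117 and with IGKV1-110 came to -0.65 and -0.56, IGHV1-42 with IGKV1-110 to -0.776 and IGHV1-64 with IGKV1-110 to -0.784.

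Leaving out 1 library, DTX1_KO minus WT ran from -0.418 to -0.310 for IGHV mutation, 2.95 to 6.81 for unmutated cells, 0.160 to 0.369 for CDR3 length, -14.5 to -10.1 for IgG1 mates, -21.96 to -12.0 for clones of 2 or more, 5.25 to 7.88 for UMIs, -5.94 to 6.23 for IGHJ2, -3.40 to 6.47 for IGHJ3 and -28.0 to -21.1 for the mate comparison. IgG3 minus IgM ran from -3.33 to -2.06 for lambda, -1.23 to 2.72 for IGHJ3 and -3.19 to 0.0759 for IGHJ4. IgG3 minus IgG1 ran from 0.123 to 0.177 for IGHV mutation, -0.0356 to 0.0287 for IGKV mutation, -2.09 to -0.704 for lambda and -1.74 to 2.08 for IGHJ3. Calls ran from 11 to 14 and 3 to 12 for IGHV genes against IgM and IgG1, 2 to 5 and 0 to 4 for light genes, and 0 to 3 and 0 to 2 for IGHV and light genes between genotypes. The IgG3 shares, IgM mates and net charge were called in every such fit. Depth limits genes with few IgG3 cells, since 0 of 375 allows 0.8%.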
